A study of Mus musculus with 12 samples.

Results

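The comparison described here asks whether inhaled nicotine shifted RNA levels in the mouse thoracic aorta differently in animals with and without the alpha7 nicotinic acetylcholine receptor. It takes the nicotine-to-air difference in libraries labelled as alpha7 receptor knockouts (KO), and subtracts the same difference in wild type (WT), for each gene on the log2 scale. A negative interaction therefore means a nicotine effect that was lower in KO than in WT, and each log2 unit is a 2-fold step. Below, lower or higher in KO refers to this effect, except where KO is compared with WT directly. All 12 libraries of the series entered 1 fit, and 14621 of the 27933 genes in the count table had enough counts to be tested. The 4 groups of 3 libraries were WT in air (libraries 8, 9 and 10), WT in nicotine (6, 11 and 12), KO in air (1, 2 and 7) and, last, KO in nicotine (3, 4 and 5). All mice were labelled as strain C57BL/6J. WT and KO animals breathed nicotine vapor, or room air in the control groups, for 12 weeks from 5 months of age, and the labels give 8 months as the age of the tissue. The knockout allele, the nicotine dose, the sex of the animals and the number of animals behind a library are not given in the labels, so p-values measure the spread between these libraries, part of which may be technical.

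The alpha7 receptor is a channel of identical subunits, encoded by Chrna7, that opens when acetylcholine or nicotine binds and lets calcium into the cell. It is found on neurons and also on macrophages, endothelial cells and other cells outside the nervous system, where its stimulation is known for damping the release of inflammatory cytokines. Nicotine acts on many other nicotinic receptor subtypes too, among them the ganglionic receptors that drive catecholamine release, so a response to nicotine can persist without alpha7.

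The libraries held between 10240031 and 12628323 counts and between 17995 and 19484 genes with a count. Defining smooth muscle genes were abundant in each of them, with Myh11 at 10272 to 21757 CPM (library-scaled counts, as edgeR computes them) and Acta2 at 6891 to 13829 CPM. Chrna7 itself was at 1.91, 2.88 and 2.98 CPM in WT air, 0.885, 1.51 and 2.12 CPM with nicotine in WT, 2.21, 1.54 and 2.31 CPM in KO air, and 2.29, 0.763 and 1.70 CPM in KO nicotine. Levels of Chrna7 in KO overlapped those in WT in each exposure, so the counts cannot serve as a check of the knockout label, which is taken as given from here on. Some libraries carried more RNA of other tissues, measured here as the mean log2 CPM of a marker list. WT nicotine 6 had a neutrophil score of 3.03, against -0.12 to 1.66 in the other libraries, and KO nicotine 3 had a hepatocyte score of 6.77, against 1.04 to 4.54. KO air 7 had a class II antigen presentation score of 4.84, against 3.13 to 4.67 in the other libraries, and a mesothelial score of 3.29, against 0.22 to 2.94. General adipocyte scores ran from 6.39 in WT air 9 to 8.82 in KO nicotine 4, so RNA of fat was present in every library and in uneven amounts. KO libraries carry the numbers 1 to 5 and 7 and WT libraries the others, and an effect of whatever the numbers stand for cannot be told apart from genotype.

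No gene passed the threshold for the interaction. edgeR's quasi-likelihood test called 0 of 14621 genes (0%), and the smallest adjusted p was 0.230. An unadjusted p under 0.05 was reached by 647 genes (4.43%), fewer than the 731 that would be expected on average if no gene differed, of which 377 (2.58%) were lower in KO and 270 (1.85%) higher. Genes with the smaller p-values were mostly those with a lower effect in KO. At an unadjusted p under 0.01, 87 were lower in KO and 32 higher, 119 in all against 146 expected. At an unadjusted p under 0.001, 14 were lower and 1 higher, 15 in all against 15 expected. DESeq2 called 9 genes, each with a lower effect in KO, and limma voom called 0. In edgeR, 1 gene was called without KO nicotine 3 and 1 without WT nicotine 12, and without the latter 673 genes were lower and 456 higher in KO at an unadjusted p under 0.05.

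Over all tested genes the median interaction was 0.02, with quartiles of -0.20 and 0.23, and 6891 genes (47.1%) lay below 0 and 7730 (52.9%) above it. The scaling of the libraries sets the bulk of genes near 0, so these values do not bear on a shift of all genes. The median 95% interval, which is not adjusted for the number of genes, reached 0.67 to each side of a gene's estimate. Larger differences can also miss the adjusted threshold, as that of Bhlhe40 did at -1.35 (edgeR adjusted p = 0.230). Each genotype alone gave few calls: edgeR called 3 genes with nicotine in WT (0.0205%), namely Has1, Errfi1 and Rcan1, and 0 in KO (0%), with 1439 and 669 genes at an unadjusted p under 0.05. DESeq2 called 115 genes in WT and 0 in KO, and the authors' deposited tables list 123 and 7 genes at an adjusted p under 0.05. The edgeR count in WT became 34 without WT air 8, 14 without WT nicotine 12, 6 without KO nicotine 3, 5 without KO air 2, 1 without WT nicotine 6, and 0 without WT air 9, WT nicotine 11 or KO air 7. Across the tested genes, which are not independent replicates, the nicotine effects in WT and KO were only weakly alike, with a Pearson r of 0.14, a Spearman rho of 0.21 and the same sign in 8742 genes (59.8%). The r was between -0.000618 without WT nicotine 12 and 0.19 without WT air 8.

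**Figure D1:**
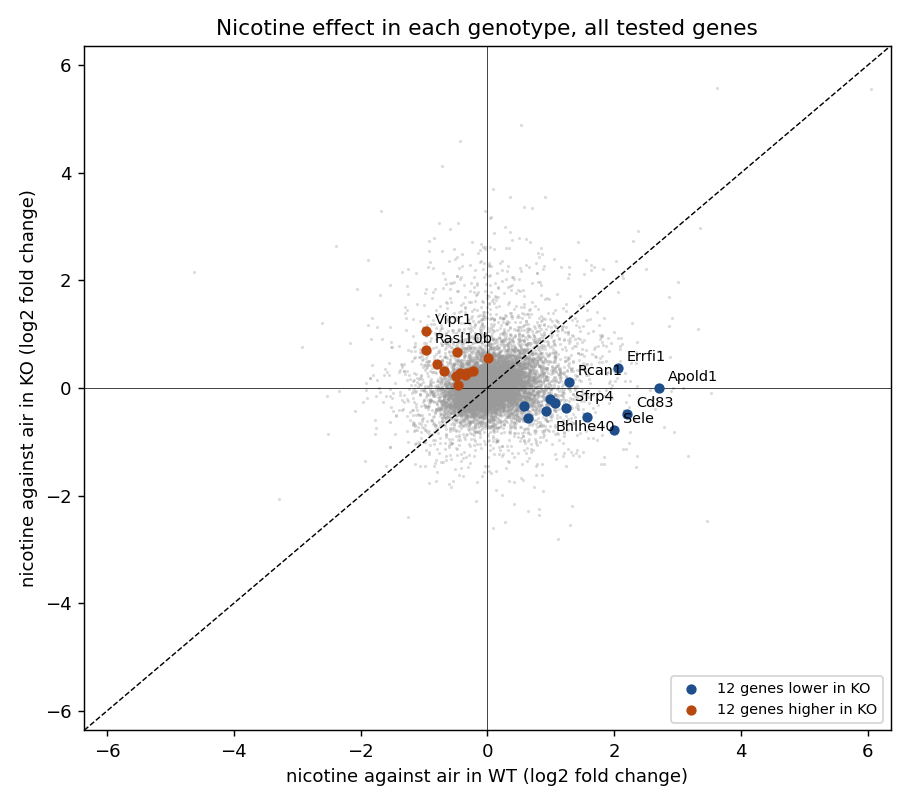
Each grey point is 1 of the 14621 tested genes, placed by its log2 fold change with nicotine in WT (x axis) and in KO (y axis), and the dashed line marks equal effects. The 12 named genes with the smallest p and a lower effect in KO (blue) lie right of 0 in WT and between -0.79 and 0.37 in KO, and the 12 with a higher effect in KO (orange) lie between -0.97 and 0.00 in WT and above 0 in KO.

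Bhlhe40, which encodes a transcriptional repressor of the basic helix-loop-helix family that is tied to the circadian clock and to hypoxia, had the smallest p of all genes. It was at 69.6, 86.6 and 79.8 CPM in WT air 8, 9 and 10 and at 162, 154 and 133 CPM in WT nicotine 6, 11 and 12. In KO it was at 120, 124 and 124 CPM in air 1, 2 and 7 and at 114, 84.6 and 75.8 CPM in nicotine 3, 4 and 5. All 3 nicotine libraries lay above the air libraries in WT and below them in KO, and the KO air libraries lay between the WT air and WT nicotine libraries. The level with nicotine was 1.90 times that in air in WT and 0.746 times that in air in KO. The interaction was -1.35 ± 0.21 (SE, 95% interval -1.80 to -0.91), with an unadjusted p of 1.57e-05 and an edgeR adjusted p of 0.230. It drew on both exposures, with KO against WT at 0.64 ± 0.15 in air and -0.71 ± 0.15 in nicotine, and neither value passed (edgeR adjusted p = 0.711 and 0.176). With DESeq2 the adjusted p of Bhlhe40 was 3.10e-05, and in edgeR it was 0.0122 without KO nicotine 3, 0.0172 with no filter on low counts and 0.0495 with WT nicotine 6 and KO nicotine 3 both left out. Over the 25 alternatives its interaction stayed between -1.53 and -1.25, with adjusted p-values from 3.10e-05 to 0.9996.

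The 3 genes called with nicotine in WT each had a smaller nicotine effect in KO, from a like level in air. Their WT nicotine libraries, by which they were chosen, also enter the interaction and the KO against WT values under nicotine. A smaller effect in KO therefore follows in part from the choice, and these values are a description. Errfi1, a feedback inhibitor of the epidermal growth factor (EGF) receptor, was at 101, 68.0 and 113 CPM in WT air against 507, 391 and 275 CPM in WT nicotine, compared with 90.5, 89.1 and 84.8 CPM in KO air and 153, 96.2 and 93.2 CPM in KO nicotine. Rcan1, an inhibitor of the phosphatase calcineurin, was at 30.5, 26.2 and 29.4 CPM in WT air against 55.3, 78.8 and 75.1 CPM in WT nicotine, compared with 29.1, 21.4 and 21.7 CPM in KO air and 30.8, 23.2 and 24.4 CPM in KO nicotine. Has1, a hyaluronan synthase, was at 1.74, 2.22 and 2.02 CPM in WT air against 8.36, 7.38 and 9.96 CPM in WT nicotine, compared with 2.72, 2.31 and 1.90 CPM in KO air and 3.94, 2.96 and 2.99 CPM in KO nicotine. The WT nicotine libraries of all 3 genes stood above all other libraries. The KO nicotine libraries lay above the KO air libraries for Errfi1 and Has1 without overlap, while those of Rcan1 overlapped. Nicotine against air was 4.15-fold in WT and 1.29-fold in KO for Errfi1, 2.43-fold and 1.09-fold for Rcan1, and 4.28-fold and 1.43-fold for Has1. The 95% interval of the interaction was -2.46 to -0.91 for Errfi1, -1.68 to -0.64 for Rcan1 and -2.42 to -0.75 for Has1, with edgeR adjusted p-values of 0.777, 0.777 and 0.994.

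Rcan1 was also the gene that passed in the direct comparison of KO with WT under nicotine, where edgeR called 1 of 14621 genes (0.00684%). It was lower in KO by -1.42 ± 0.17 on the log2 scale, with an edgeR adjusted p of 0.0191, and the 3 KO libraries lay below the 3 WT libraries. In air its KO against WT value was -0.25 ± 0.17, and edgeR called 0 genes (0%) between the genotypes there. The same values for Errfi1 were -1.78 in nicotine (edgeR adjusted p = 0.0537) and -0.09 in air, and for Has1 they were -1.38 (edgeR adjusted p = 0.176) and 0.21. For these 3 genes the interaction was thus carried by the nicotine libraries, unlike that of Bhlhe40. This too follows in part from their choice by the WT nicotine libraries.

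The promoters of these 3 genes are shown because they are the genes called in WT and each holds the motif TGACGTCA, the full palindromic site that factors of the CREB and ATF family bind, within 250 bases before a transcription start. The sequences are from RefSeq, build GRCm38.p6, 5′ to 3′ on the gene's strand, with the motif in capitals. Errfi1 lies on the plus strand (chr4:150854820-150855069, motif starting 51 bases before the transcription start), and Has1 (chr17:17855189-17855438, 83 bases) and Rcan1 (chr16:92400079-92400328, 175 bases) on the minus strand.
Errfi1: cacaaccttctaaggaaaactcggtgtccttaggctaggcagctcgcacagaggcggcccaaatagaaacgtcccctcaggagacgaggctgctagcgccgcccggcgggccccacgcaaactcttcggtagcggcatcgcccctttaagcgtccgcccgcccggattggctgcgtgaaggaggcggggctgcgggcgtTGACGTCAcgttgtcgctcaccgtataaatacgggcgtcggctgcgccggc
Has1: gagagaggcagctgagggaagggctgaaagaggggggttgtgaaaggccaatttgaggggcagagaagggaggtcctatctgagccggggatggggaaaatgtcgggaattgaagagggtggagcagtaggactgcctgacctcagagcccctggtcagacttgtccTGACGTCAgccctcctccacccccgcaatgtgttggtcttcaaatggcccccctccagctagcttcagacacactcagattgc
Rcan1: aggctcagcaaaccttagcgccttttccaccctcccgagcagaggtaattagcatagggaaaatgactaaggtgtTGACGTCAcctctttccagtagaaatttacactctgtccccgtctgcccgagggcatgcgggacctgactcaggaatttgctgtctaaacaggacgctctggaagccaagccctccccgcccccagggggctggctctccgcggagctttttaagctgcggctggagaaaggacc
TGACGTCA was found in 508 of 32851 RefSeq mouse promoters of that length (1.55%). The table lists 2 starts for Errfi1, 2 for Rcan1 and 1 for Has1, and the motif was found before 1 start of each gene. Of the 12 leading genes with a lower effect in KO, 7 had promoters in the table (9 promoters), and TGACGTCA stood in those of Errfi1 and Rcan1. Of the 12 leading genes with a higher effect, 9 had promoters (10 promoters), none of which held it. The other motifs searched on both strands were TGACG, which lies within TGACGTCA (17.8% of all promoters), TGANTCA (6.75%), CACGTG (6.02%), the core of the interferon-stimulated response element (2.98%), the NF-kappaB site (7.91%), the serum response element (1.47%) and the glucocorticoid response element (0.113%). In the promoters of the 12 leading lower genes, TGANTCA stood in those of Efemp1, Rcan1 and Sele, CACGTG in that of Rcan1 and TGACG in those of Apold1, Errfi1 and Rcan1. In those of the 12 leading higher genes, CACGTG stood in the promoters of Magt1 and Pomgnt1, TGACG in those of Epm2aip1 and Vipr1, and the NF-kappaB site in that of Vipr1. The motifs and genes were chosen with the expression values known, so these matches are a description of the sequences.

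The 12 leading genes with a lower effect in KO were Bhlhe40, Sfrp4, Rcan1, Cd33, Apold1, Igfbp6, Errfi1, Lbp, Efemp1, Unc93b1, Sele and Cd83. They were taken as the named genes with the smallest unadjusted p and at least 5 CPM in the highest group, so their values are a description. Their interactions ran from -2.79 to -0.91, and none passed (edgeR adjusted p from 0.230 to 0.950). In all 12 the WT nicotine libraries lay above the WT air libraries, which held for 1042 of all tested genes (7.13%). In 6 of the 12 the KO nicotine libraries lay below the KO air libraries, which held for 811 of all tested genes (5.55%). KO against WT was above 0 in air in 10 of the 12 and below 0 in nicotine in all 12. Of the 14621 tested genes, 7341 were above 0 in air and 6980 below 0 in nicotine. The choice of genes by a low interaction sets these signs in part.

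Sfrp4, Igfbp6 and Efemp1 encode secreted proteins, a Wnt antagonist, a binding protein of insulin-like growth factors and the matrix protein fibulin-3. Sfrp4 was at 77.1, 110 and 73.5 CPM in WT air, 206, 152 and 259 CPM with nicotine in WT, 93.4, 91.4 and 99.6 CPM in KO air, and 87.6, 54.5 and 78.2 CPM in KO nicotine. The genotypes were near each other in air and apart under nicotine, with KO against WT at 0.12 in air and -1.48 ± 0.22 in nicotine (edgeR adjusted p = 0.0537). Its interaction was -1.61 ± 0.31 (95% interval -2.27 to -0.94, edgeR adjusted p = 0.777, and 0.00668 with DESeq2). Igfbp6 was at 59.0, 57.7 and 55.2 CPM in WT air against 122, 107 and 112 CPM in WT nicotine, while its KO libraries overlapped, with 76.3, 52.2 and 80.6 CPM in air and 78.8, 47.6 and 56.4 CPM in nicotine. Igfbp6 had an interaction of -1.18 ± 0.26 (95% interval -1.74 to -0.63), and Efemp1 had one of -0.91 ± 0.21.

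The other leading genes are known mostly from endothelial and immune biology. Apold1, an endothelial gene known for its rapid induction, was at 3.13, 1.65 and 3.15 CPM in WT air against 20.1, 24.8 and 7.19 CPM in WT nicotine, compared with 3.23, 5.55 and 5.28 CPM in KO air and 5.04, 4.96 and 4.05 CPM in KO nicotine. Its nicotine effect was 2.71 ± 0.42 in WT (edgeR adjusted p = 0.0501) and -0.00 ± 0.41 in KO, with an interaction of -2.72 ± 0.58. Sele, the adhesion receptor E-selectin, was at 0.783, 1.48 and 2.26 CPM in WT air against 4.82, 9.73 and 3.76 CPM in WT nicotine, compared with 4.93, 3.08 and 2.64 CPM in KO air and 2.29, 1.33 and 2.51 CPM in KO nicotine. The WT and KO libraries of Sele were thus set apart in opposite directions, with an interaction of -2.79 ± 0.66. Cd83, a marker of activated dendritic cells, was at 15, 16.5 and 4.49 CPM in WT nicotine and at or under 6.27 CPM in every other library. Cd33, a sialic acid-binding receptor of myeloid cells, was at 4.18, 4.12 and 3.39 CPM in WT air, 17.7, 10.1 and 7.10 CPM with nicotine in WT, 6.89, 8.03 and 9.66 CPM in KO air and 4.31, 6.2 and 6.47 CPM in KO nicotine. WT nicotine 6, the library with the highest neutrophil score, held the highest value of Cd33. The interactions of Cd83 and Cd33 were -2.69 ± 0.64 and -2.10 ± 0.44, and those of Lbp, the lipopolysaccharide-binding protein, and Unc93b1, a chaperone of endosomal Toll-like receptors, were -1.34 ± 0.31 and -1.19 ± 0.28.

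**Figure D2:**
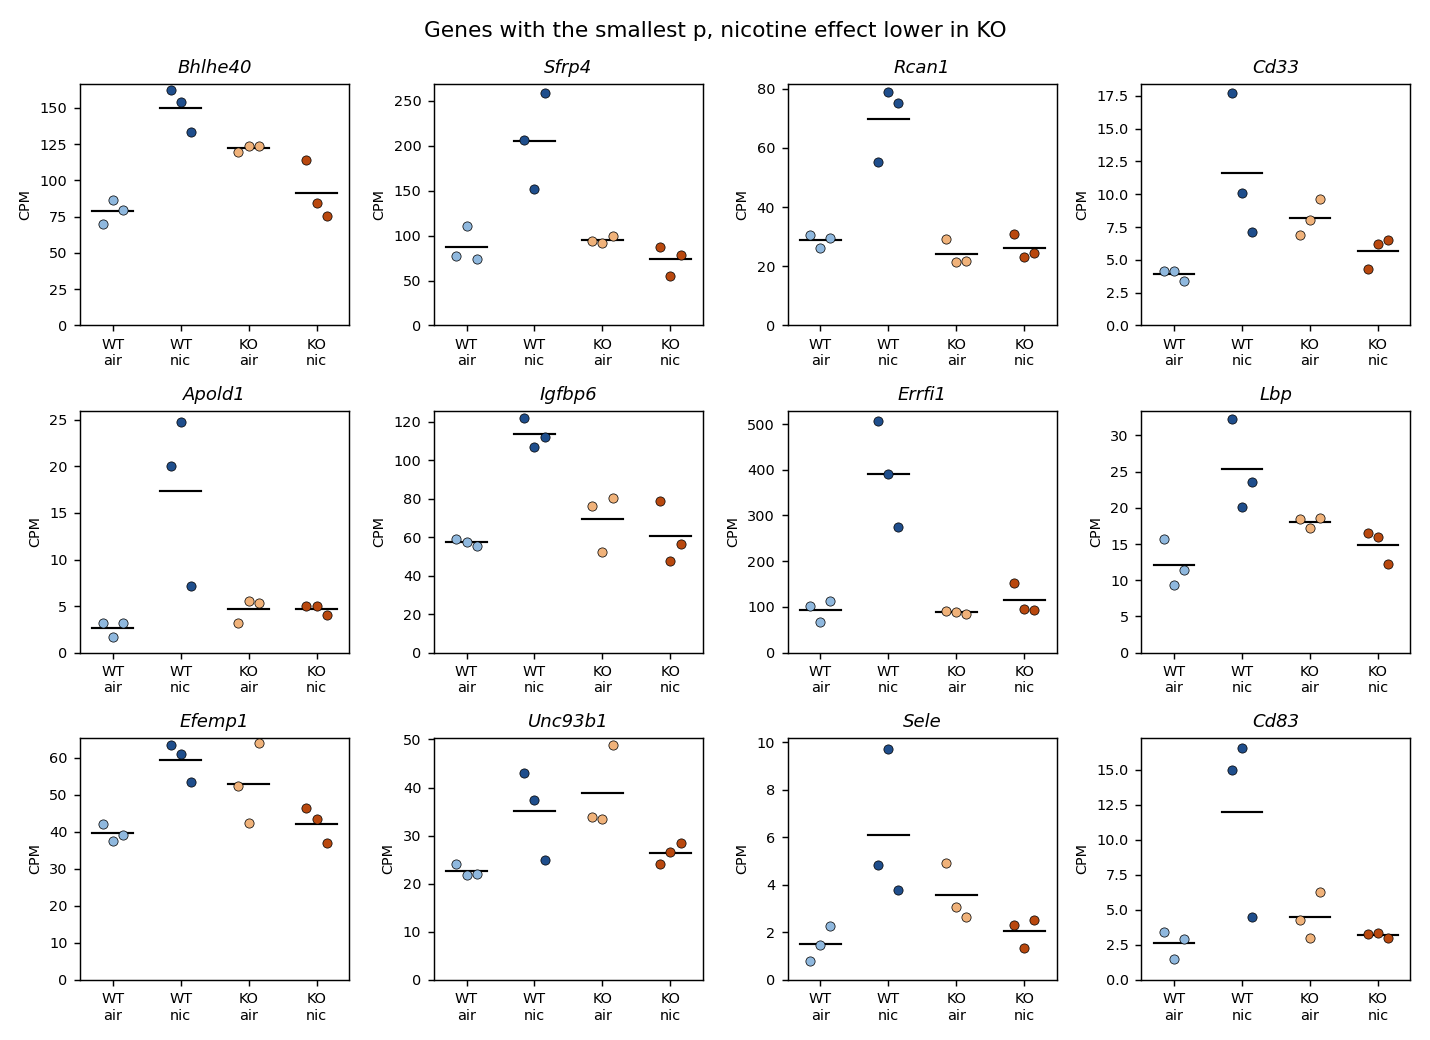
Points are the CPM of single libraries on linear axes from 0, and bars are group means, for the 12 named genes with the smallest p and a lower nicotine effect in KO. In all 12 panels the 3 WT nicotine libraries lie above the 3 WT air libraries, while the KO nicotine libraries lie below the KO air libraries in 6.

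In the other direction the leading genes had a median interaction of 0.71, against -1.48 for those with a lower effect in KO. The 12 genes with the smallest p and a higher effect in KO included Vipr1, Cdk5rap1, Rin1, Magt1, Epm2aip1, Pomgnt1, Zfp407, Depdc5, Exosc8, Rasl10b and Nol12, with interactions from 0.53 to 2.03 and edgeR adjusted p from 0.925 to 0.999. Vipr1, a receptor for vasoactive intestinal peptide, a vasodilator, was at 6.35, 9.39 and 14.9 CPM in WT air, 4.52, 4.95 and 6.21 CPM with nicotine in WT, 5.02, 5.13 and 4.13 CPM in KO air, and 13.9, 5.91 and 9.95 CPM in KO nicotine. Nicotine libraries of Vipr1 lay below air libraries in WT and above them in KO, and its interaction was 2.03 ± 0.48 (95% interval 0.99 to 3.06). Cdk5rap1, which modifies mitochondrial transfer RNA, was at 7.14, 7.5 and 5.81 CPM in WT air, 5.61, 4.36 and 4.65 CPM with nicotine in WT, 5.02, 5.04 and 5.37 CPM in KO air, and 8.52, 7.15 and 8.90 CPM in KO nicotine. Its groups were likewise apart in opposite directions, with an interaction of 1.16 ± 0.30. Rin1, a Ras effector that acts on endocytosis, had an interaction of 1.24 ± 0.33, and Magt1, a subunit of the protein glycosylation machinery that also bears on magnesium transport, had one of 0.55 ± 0.15. In 10 of the 12 genes the WT nicotine libraries lay below the WT air libraries (885 of all tested genes, 6.05%), and in 6 the KO nicotine libraries lay above the KO air libraries (750 of all tested genes, 5.13%). KO against WT was below 0 in air in 11 of the 12 and above 0 in nicotine in all 12. For comparison, 7341 of the 14621 tested genes were above 0 in air and 6980 were below 0 in nicotine. These 12 genes were chosen by the p and direction of their interaction, which sets these signs in part, so their values too are a description.

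**Figure D3:**
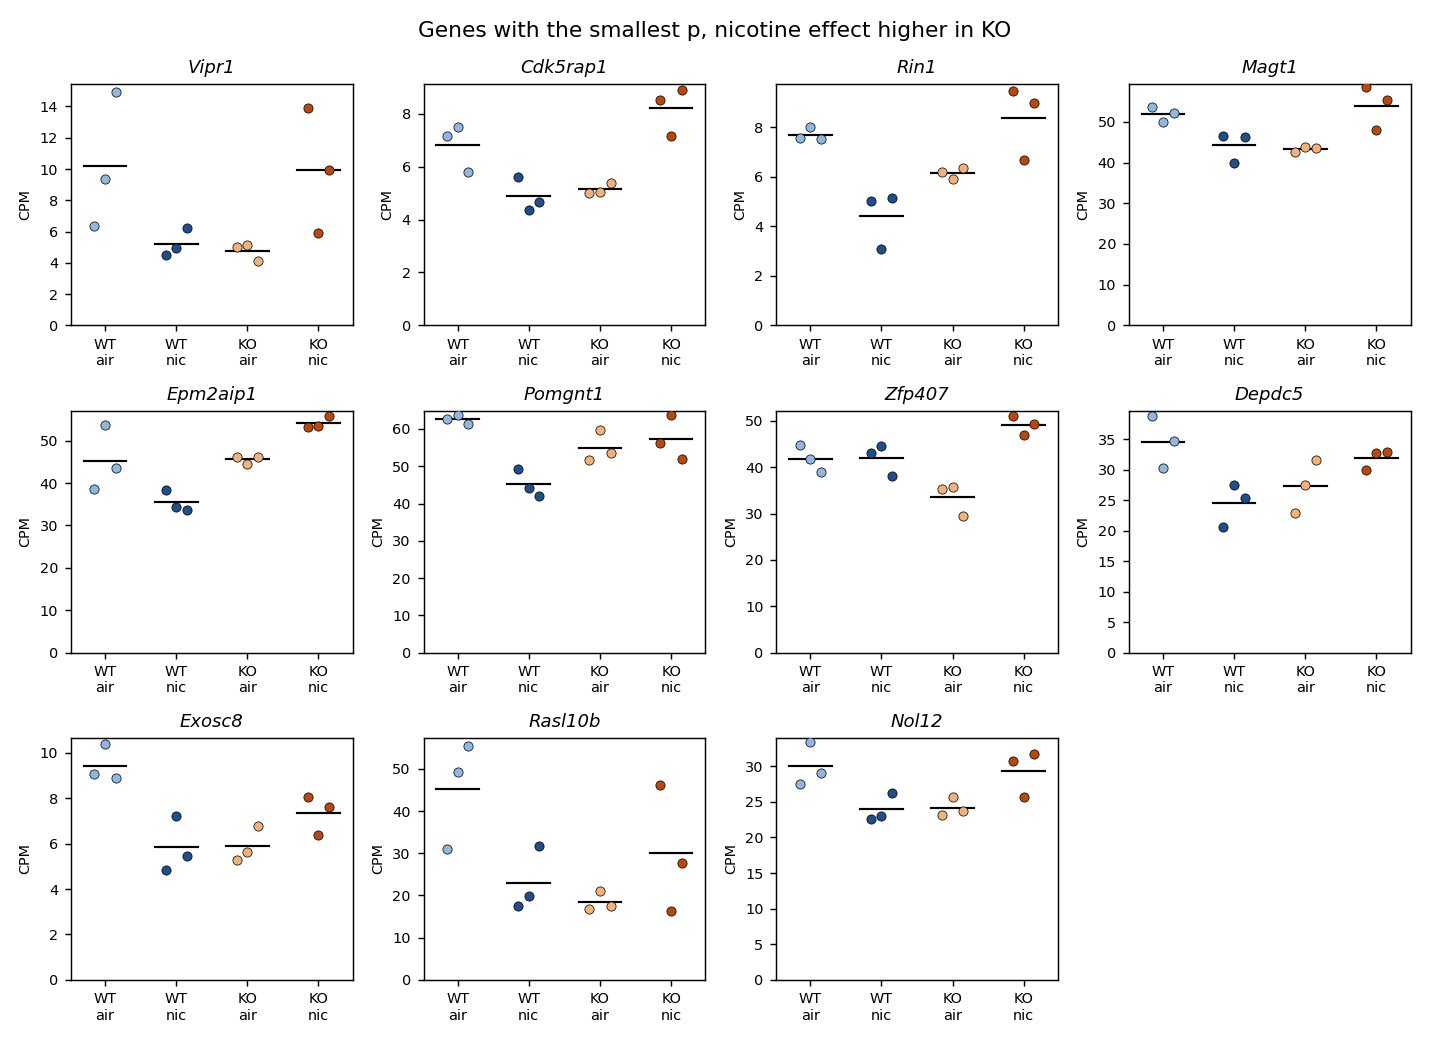
Points are the CPM of single libraries on linear axes from 0, and bars are group means, for 11 of the 12 genes with the smallest p and a higher nicotine effect in KO. The WT nicotine libraries lie below the WT air libraries in 9 panels and the KO nicotine libraries above the KO air libraries in 6.

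Genes whose libraries separated in opposite directions in the genotypes were rare. In 22 of 14621 genes (0.15%) the nicotine libraries lay above air in WT and below air in KO, and in 21 (0.144%) it was the reverse. The 10 with the smallest p among those with at least 5 CPM included Bhlhe40, Sfrp4, Cd33, Lbp, Unc93b1, Sele, Vipr1 and Cdk5rap1, given above, and Tmem173. Tmem173, which encodes STING, the adaptor of cytosolic DNA sensing that drives interferon, was at 5.48, 4.04 and 6.13 CPM in WT air, 10.2, 9.14 and 8.41 CPM with nicotine in WT, 6.80, 6.84 and 8.75 CPM in KO air, and 5.86, 6.01 and 4.53 CPM in KO nicotine. Its interaction was -1.28 ± 0.32 (edgeR adjusted p = 0.999).

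Immediate early genes encode transcription factors and regulators induced within minutes of a stimulus. As a list they had a lower nicotine effect in KO, without a member that passed. Of 25 tested, 23 were below 0 (47.1% of all tested genes), with a median interaction of -0.69 against 0.02 over all genes. An unadjusted edgeR p under 0.05 was reached by 5, all lower in KO, against 2.58% of all tested genes. The list's median was 0.85 in WT, with all 25 above 0, and 0.01 in KO, with 13 above 0. Of the 14621 tested genes, 7227 were above 0 in WT and 7534 in KO. Egr2 was at 2.96, 5.85 and 9.92 CPM in WT air, 73.2, 55.1 and 16.9 CPM with nicotine in WT, 18.7, 7.95 and 8.17 CPM in KO air, and 7.33, 3.34 and 9.06 CPM in KO nicotine. Its interaction of -3.76 ± 0.90 had a 95% interval of -5.76 to -1.75. Fosl2, a subunit of the AP-1 factor, was steadier, at 141, 143 and 184 CPM in WT air, 354, 394 and 350 CPM with nicotine in WT, 172, 84.8 and 136 CPM in KO air, and 138, 130 and 163 CPM in KO nicotine, with an interaction of -1.10 ± 0.29. Egr1, the best known of the family, spread widely, with 145, 286 and 695 CPM in WT air, 1102, 1251 and 534 CPM with nicotine in WT, 920, 415 and 523 CPM in KO air, and 356, 225 and 604 CPM in KO nicotine. The groups of Egr1 overlapped in both genotypes, and its interaction was -2.0 ± 0.85. The median of the immediate early genes became -1.31 without WT air 10, with 25 of 25 below 0, and -1.13 without KO nicotine 5. It shrank to -0.55 without KO air 1, with 22 of 25 below 0, and to -0.59 without WT air 8 or WT air 9. In each of these last 3 fits, 2 members lower in KO had an unadjusted p under 0.05.

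The pathways of the 3 genes called in WT lay near the median of all genes as lists. Of 29 tested ligands, receptors and feedback genes of the EGF receptor, 18 were below 0, with a median interaction of -0.09. The feedback inhibitors Spry2 (-0.93 ± 0.36) and Spry4 (-0.69 ± 0.29) were, with Errfi1, the 3 members at an unadjusted p under 0.05. Of all tested genes, 2.58% were lower in KO at that p, and 47.1% were below 0. Spry4 was at 23.8, 14.7 and 21.9 CPM in WT air, 42.4, 43.1 and 40.6 CPM with nicotine in WT, 22.4, 14.1 and 19.6 CPM in KO air, and 29.0, 22 and 21.6 CPM in KO nicotine, so that its WT nicotine libraries stood above all others. Hyaluronan genes were split, with 10 of 20 below 0 and a median of 0.00. At an unadjusted p under 0.05 the list had 3 members lower and 2 higher in KO, against 2.58% and 1.85% of all tested genes. Members below 0 included Has1, the synthase Has2 (-2.11 ± 0.92) and Ugdh, which makes a sugar precursor of hyaluronan (-0.53 ± 0.20). Those above 0 included the degrading enzyme Hyal2 (0.45 ± 0.19) and the clearance receptor Stab2 (2.78 ± 1.25). Stab2 was at 11.5 CPM in KO nicotine 3 and at or under 1.17 CPM in every other library. Of 20 calcineurin and NFAT genes, 9 were below 0, with a median of 0.01, and Rcan1 was the 1 member at an unadjusted p under 0.05.

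Most immune gene lists had a lower nicotine effect in KO, again with no member past the threshold. Macrophage markers were below 0 in 20 of 23 (median -0.67), cytokine, chemokine and adhesion genes in 23 of 26 (-0.57), interferon-stimulated genes in 25 of 26 (-0.74) and class II antigen presentation genes in 9 of 9 (-1.56). Over all tested genes, 47.1% lay below 0. At an unadjusted p under 0.05, all lower in KO, there were 6, 8, 7 and 5 members, against 2.58% of all tested genes. The medians in WT were 0.76, 0.70, 0.45 and 0.78 and those in KO were 0.12, 0.03, -0.37 and -0.79. Macrophage markers and cytokine genes were thus near 0 in KO, whereas interferon-stimulated and class II genes lay below 0 there. Each of these lists stood higher in KO than in WT in air, with median KO against WT values of 0.39, 0.35, 0.46 and 0.98 in the same order. Over all tested genes that median was 0.00. KO air 7 had the highest score of the KO air libraries in each of these lists. For class II genes the scores were 3.96, 3.80 and 4.84 in KO air 1, 2 and 7, and 3.49, 4.03 and 3.14 in KO nicotine 3, 4 and 5. Without KO air 7 the median interactions of the lists were -0.51, -0.39, -0.47 and -1.18. With a mean of at least 5 CPM required, 12 cytokine genes remained, with a median interaction of -0.27 and 1 member at an unadjusted p under 0.05. Under that filter the macrophage, interferon-stimulated and class II medians were -0.67, -0.77 and -1.62, over 19, 19 and 6 members. Mast cell markers had 2 of 7 below 0 and a median of 0.23, but the median took the other sign without WT air 8 (-0.08) and without KO nicotine 4 (-0.28) and was -0.01 with limma voom.

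The macrophage markers with the smallest p were the immunoglobulin receptor gene Fcgr3 (-1.30 ± 0.34), the mannose receptor gene Mrc1 (-0.89 ± 0.27) and the growth factor receptor gene Csf1r (-0.88 ± 0.28). Mrc1 was at 53.6, 39.6 and 41.9 CPM in WT air, 117, 84.2 and 96.0 CPM with nicotine in WT, 75.2, 48.5 and 74.1 CPM in KO air, and 93.0, 68.0 and 73.6 CPM in KO nicotine. Its WT nicotine libraries stood above its WT air libraries, while those of KO overlapped. Of the chemokines, Ccl2, which draws monocytes, was at 1.39, 0.494 and 0.887 CPM in WT air, 9.05, 4.19 and 7.68 CPM with nicotine in WT, 1.62, 0.598 and 4.71 CPM in KO air, and 2.84, 1.91 and 1.94 CPM in KO nicotine. The interaction of Ccl2 was -2.96 ± 0.86 (95% interval -4.80 to -1.11), and that of the neutrophil chemokine gene Cxcl1 was -1.88 ± 0.58. Il1b, the cytokine interleukin 1 beta, had an interaction of -3.62 ± 0.99, with its highest value, 11.8 CPM, in WT nicotine 6. Cd74, the invariant chain of class II, was at 97.7, 109 and 85.7 CPM in WT air, 247, 194 and 99.5 CPM with nicotine in WT, 144, 163 and 307 CPM in KO air, and 114, 163 and 76.2 CPM in KO nicotine, and its groups overlapped in both genotypes. Its interaction was -1.69 ± 0.55, and that of Gbp5, an interferon-induced GTPase of a multigene family whose reads may be split among members, was -1.58 ± 0.42.

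The medians of several immune lists rested in part on a few libraries. Neutrophil markers were below 0 in 9 of 9 with a median of -1.82, which was -0.76 without WT nicotine 6 and -0.95 when KO air 7 was left out. Without WT nicotine 6 the median of the macrophage markers became -0.37, that of the interferon-stimulated genes -0.43, that of the red cell markers -0.16 (from -0.87, with 8 of 8 below 0), and that of the B cell and plasma cell markers 0.15 (from -0.74, with 9 of 10 below 0). Without KO air 7 the median of the interferon-stimulated genes was -0.47, and without KO nicotine 3 that of the cytokine, chemokine and adhesion genes was -0.95. B cell and plasma cell markers were at -0.46 without WT air 8, -1.20 without WT nicotine 12 and -0.48 without KO air 7. The class II genes stayed between -1.95 and -1.18, and T cell markers (10 of 11 below 0, median -0.86) between -1.20 and -0.58, with each library left out in turn. Some lists were mostly of low counts. With a mean of at least 5 CPM required, 2 neutrophil, 1 T cell and 3 B cell and plasma cell markers remained. In whole tissue, fewer cells of a type and less RNA per cell cannot be told apart, and the part of these cells in the results was not tested.

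The nicotine effect on fibroblast markers was lower in KO throughout, at a small size and with no member past the threshold. All 14 were below 0, with a median interaction of -0.35, and they were so with each library left out in turn, with medians from -0.42 to -0.26. In WT 14 of 14 were above 0 (median 0.26), and in KO 12 of 14 were below 0 (median -0.09). Of the 14621 tested genes, 47.1% had an interaction below 0, 7227 were above 0 in WT and 7087 were below 0 in KO. At an unadjusted p under 0.05 the list had 1 member, lower in KO, against 2.58% of all tested genes. Clec3b, a secreted plasminogen-binding lectin, had the smallest p of them, at 101, 127 and 110 CPM in WT air, 200, 159 and 128 CPM with nicotine in WT, 135, 114 and 127 CPM in KO air, and 135, 119 and 119 CPM in KO nicotine. The WT nicotine libraries of Clec3b lay above its WT air libraries by a narrow margin, and its interaction was -0.54 ± 0.21. Elastic fibre and collagen genes were below 0 in 16 of 24 (median -0.13, and 0.05 with WT nicotine 6 and KO nicotine 3 both left out), and matrix proteases and their inhibitors in 15 of 23 (median -0.21). At an unadjusted p under 0.05 the first list had 2 members lower in KO and the second had 2 lower and 1 higher. Over all tested genes the shares were 2.58% lower and 1.85% higher. Of these members, Loxl2, which crosslinks collagen, had -0.84 ± 0.27 and Mmp2, a protease of collagens, had -0.67 ± 0.25. Adamts15, a protease of matrix proteoglycans, was the one higher in KO, at 0.81 ± 0.30.

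Contractile smooth muscle genes, the main content of the tissue, showed no such pattern. Of 19, 6 were below 0, with a median interaction of 0.06 and medians of -0.46 in WT and -0.35 in KO, so the list lay below 0 in each genotype. None had an unadjusted p under 0.05. Endothelial markers had 6 of 16 below 0 and a median of 0.04, which became -0.16 without WT air 8 (12 of 16 below 0) and -0.10 without WT nicotine 12 (10 of 16), and also fell below 0 without KO air 1, KO air 7 or KO nicotine 3, with 1 surrogate variable and with limma voom. The contractile median took the other sign without KO nicotine 5 (-0.19) and WT air 9 (-0.06) and with an adipocyte covariate (-0.15). General adipocyte markers had medians of 0.65 in WT and 0.60 in KO and an interaction median of -0.12. Their sign turned with several single libraries, among them WT air 9 (0.25 without it).

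Markers of other tissues had medians that rested on single libraries. Hepatocyte genes had the highest median, 1.56, with 3 of 21 below 0, and it was -0.81, with 20 of 21 below 0, without KO nicotine 3. The mesothelial markers, from the lining of body cavities, had a median of -0.89 with 12 of 13 below 0, which was 0.06 when KO air 7 was left out and -2.15 without KO nicotine 3. Heat shock genes had a median of -0.24 with 13 of 18 below 0, led by the chaperone genes Dnajb1 (-2.04 ± 0.67) and Bag3 (-0.94 ± 0.35), and the sign turned without WT air 10 (0.02) or WT nicotine 12 (0.05). Glucocorticoid-responsive genes (12 of 19 below 0, median -0.09) and circadian clock genes (10 of 19, -0.05) lay near the median of all genes, although Bhlhe40 is 1 of the clock genes. In all, the medians of 31 of 41 lists lay below the median of all genes and those of 10 above it, and no list held a gene that passed for the interaction. The lists were chosen with earlier results of these data known, so these counts are a description of the lists and not of genes at large.

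**Figure D4:**
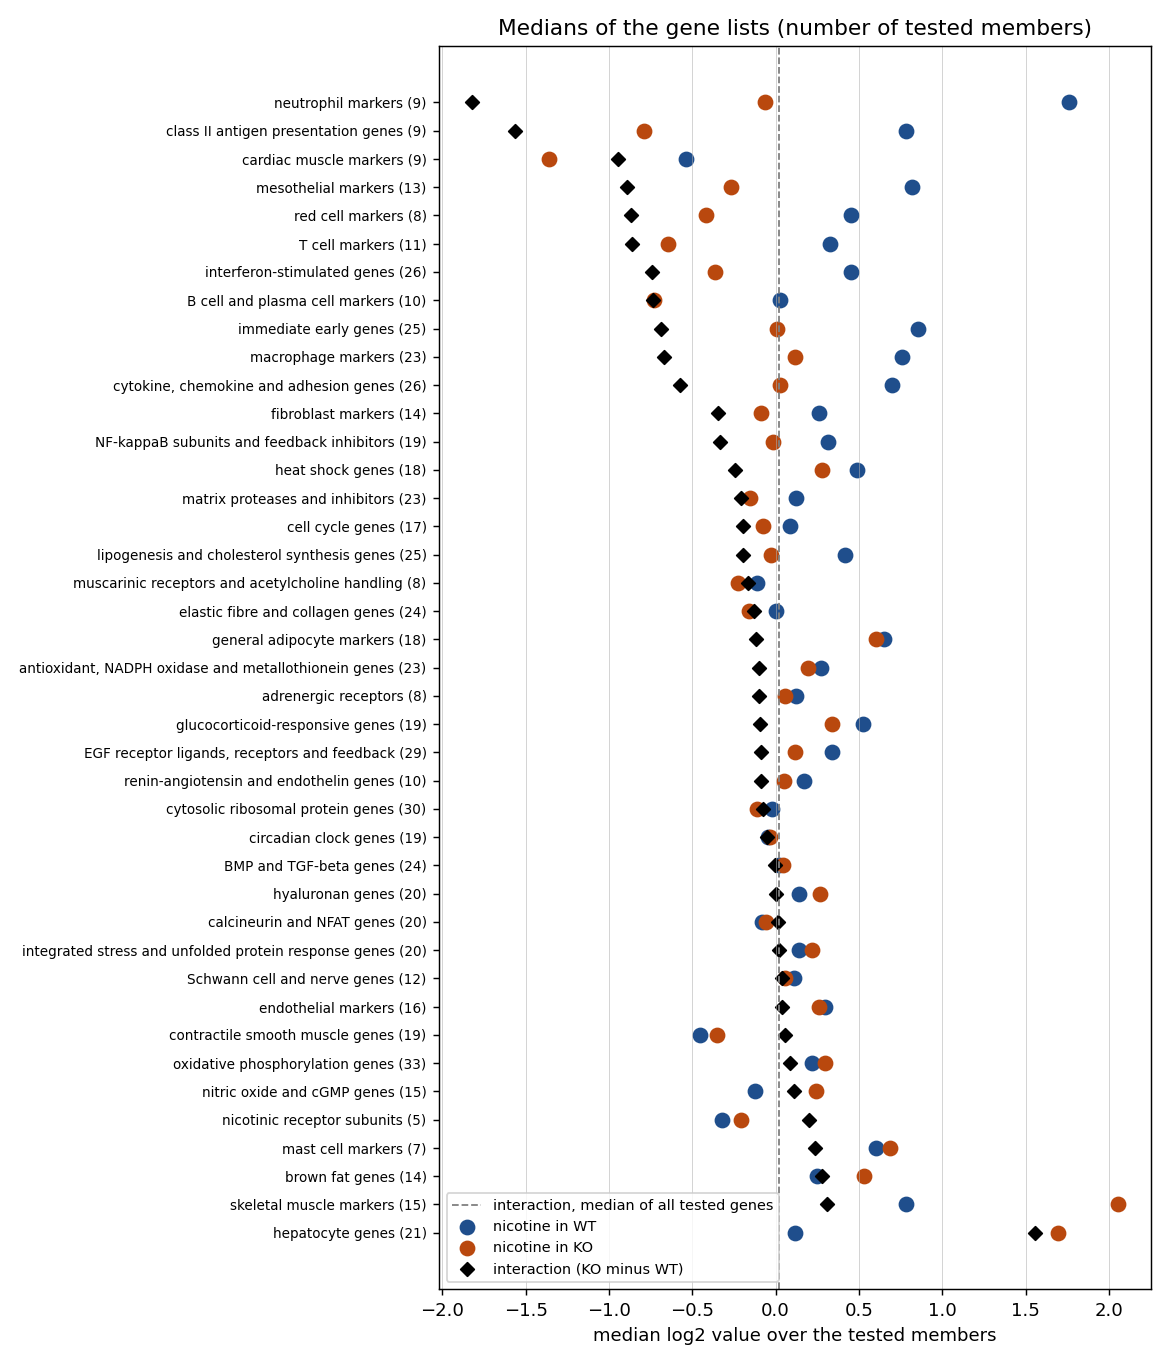
Points are the medians of log2 values over the tested members of each list, for nicotine in WT (blue), nicotine in KO (orange) and the interaction (black diamonds), with the median interaction of all tested genes as the dashed line. Macrophage, neutrophil, cytokine, interferon, class II and immediate early lists lie between 0.45 and 1.76 in WT and between -0.79 and 0.12 in KO. T cell markers lie at 0.33 in WT and -0.64 in KO, and B cell and plasma cell markers at 0.03 and -0.73. Contractile genes lie near -0.46 in WT and -0.35 in KO.

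No gene for a receptor through which nicotine or vascular signals act passed for the interaction. Of the nicotinic subunits, 5 had enough counts to be tested, with 2 below 0 and a median interaction of 0.20. That median took the other sign with limma voom (-0.16) and 1 surrogate variable (-0.09). It did so too without WT nicotine 11, WT nicotine 12, KO air 1 or KO nicotine 4. Chrna7 was at 0.43 ± 0.66 (95% interval -0.99 to 1.84), Chrnb1 at 0.36 ± 0.33 (-0.35 to 1.07) and Chrnb2 at -1.10 ± 0.66 (-2.52 to 0.33). The interval of Chrna7 leaves large differences in either direction unresolved, that of Chrnb1 a large higher effect in KO and that of Chrnb2 a large lower one. Adrenergic receptors had 4 of 8 below 0 (median -0.10), renin-angiotensin and endothelin genes 6 of 10 (-0.09) and nitric oxide and cGMP genes 7 of 15 (0.11). The sign of the adrenergic median turned with several single libraries, among them KO air 1 (0.25 without it). The renin-angiotensin and endothelin median turned without WT nicotine 6 (0.03) or KO air 1 (0.06). Nos3, the endothelial nitric oxide synthase, was at 32.9, 31.4 and 40.5 CPM in WT air, 32.3, 23.7 and 31.0 CPM with nicotine in WT, 28.2, 36.4 and 25.3 CPM in KO air, and 58.0, 29.8 and 41.2 CPM in KO nicotine. The groups of Nos3 overlapped in both genotypes, and its interaction was 0.79 ± 0.32. Agtr1a, the angiotensin II receptor, had an interaction of -2.57 ± 0.75 at levels from 0.403 to 4.79 CPM, and its reads may be shared with the near-identical Agtr1b, whose own interaction was 1.56 ± 0.91 at levels from 0.252 to 2.35 CPM.

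The named genes kept their direction under the alternatives more often than they passed. Besides Bhlhe40, DESeq2 called Sfrp4 (adjusted p = 0.00668), Errfi1 (0.0168), Apold1 (0.0233), Cd33 (0.0327), Rcan1 (0.0360) and Ccnb2 (0.0342), a mitotic cyclin at 0.162 to 2.56 CPM, and the remaining 2 were Adprhl1 and Ttc25, named here after their values were seen. The difference between the log2 fold changes in the authors' deposited tables, divided by their combined standard errors and adjusted over 17200 genes, passed for 7 genes. With the authors' deposited tables these were Bhlhe40 (adjusted p = 0.000476), Sfrp4 (0.00192), Errfi1 (0.00252), Apold1 (0.00698), Cd33 (0.0373), Egr2 (0.0373) and Cd83 (0.0406), all lower in KO. Without WT nicotine 12, edgeR called 1 gene, Zbtb16 (1.71, edgeR adjusted p = 0.0302), a zinc finger gene that is named after its value was seen. Leaving out 1 library at a time, edgeR called Bhlhe40 without KO nicotine 3, and the other 10 single-library alternatives called 0 genes.

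**Figure D5:**
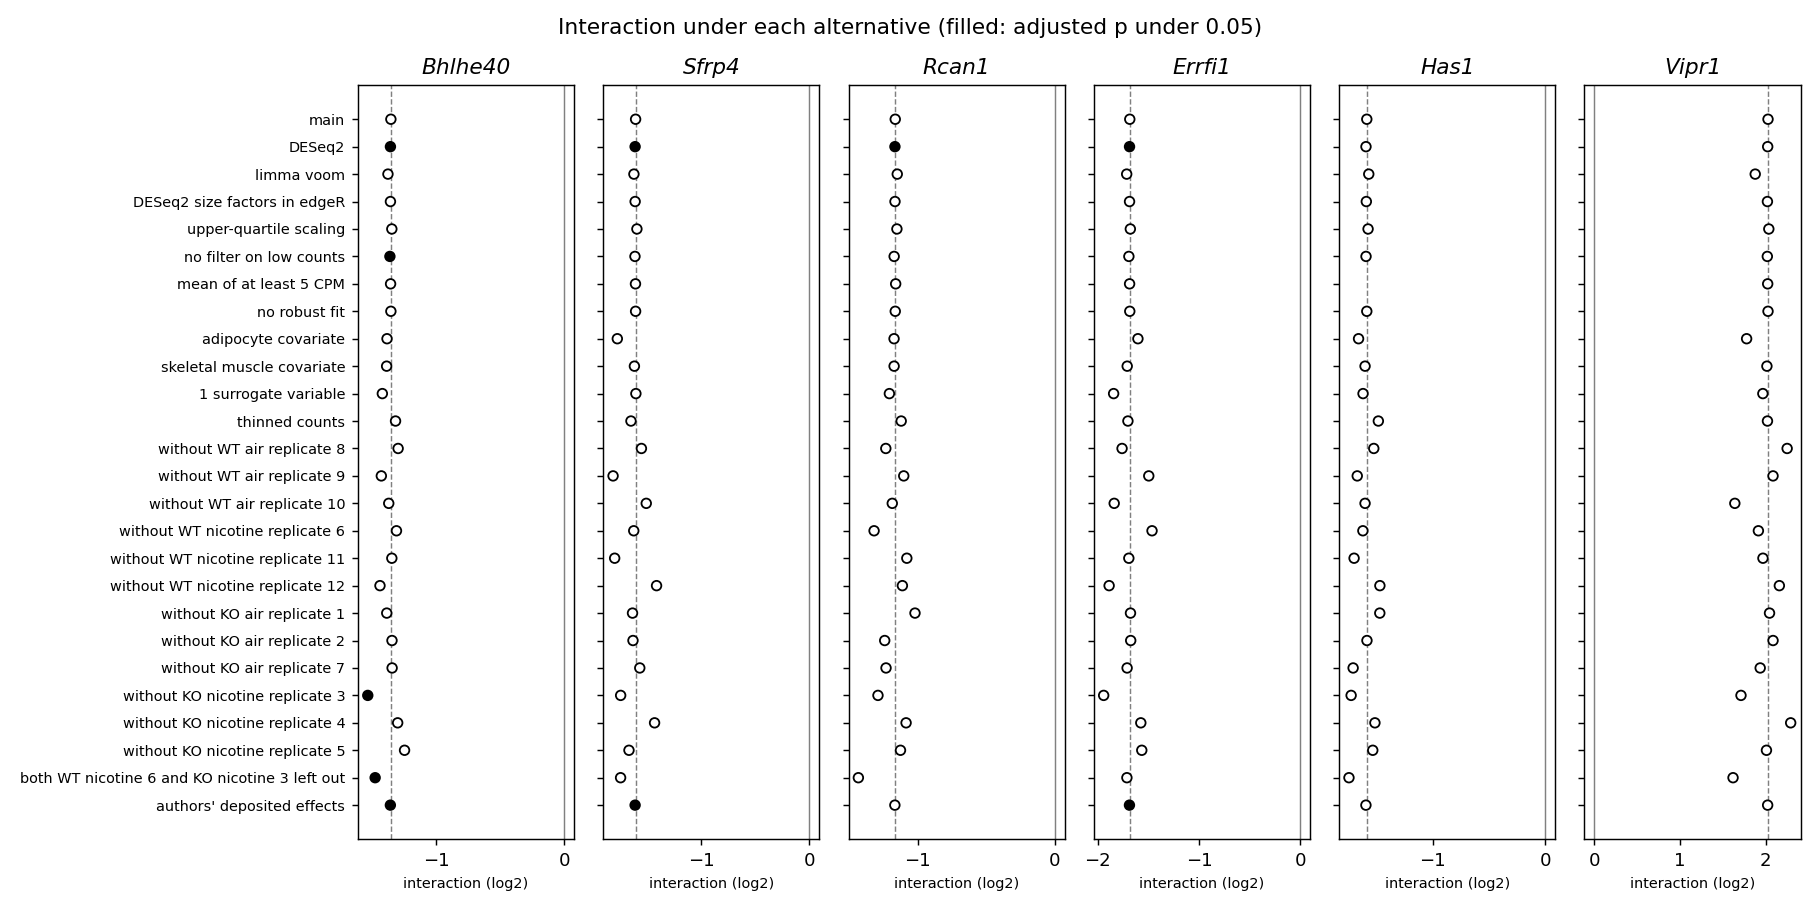
Each row is the main fit or 1 alternative, and each point is the interaction (log2, x axis) of the gene named above the panel, filled where the adjusted p is under 0.05, with the solid line at 0 and the dashed line at the main value. The 6 genes keep their side of 0 throughout, while filled points are few and fall mostly on DESeq2 and the authors' deposited effects.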

How the data were processed

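RNA of mouse thoracic aorta, cleaned of fat, was measured in 12 libraries prepared with a low-input SMART-Seq kit per the labels. Adipocyte marker RNA was still present in every library. Per the submitters' processing notes the authors used HTSeq and the build mm9 of the mouse genome, and the deposited counts are whole numbers for each gene symbol that were not normalised. Aligner, annotation and strand setting were not given in the sources used here, so reads of overlapping genes cannot be told apart. The authors also deposited, per the file headers, 1 table per genotype comparing nicotine with air, with log2 fold changes and their standard errors on the log2 scale, unadjusted and adjusted p-values and a test score, of which the log2 values were used. These deposited tables share 17200 genes.

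Genes were filtered with filterByExpr, scaled by TMM (factors 0.962 to 1.05) and fitted with the robust quasi-likelihood model of edgeR 4.0.16, using 4 group means (8 residual degrees of freedom, biological coefficient of variation 0.233). A gene was called at a Benjamini-Hochberg adjusted p under 0.05. The SE is the absolute log2 value over the square root of F, and 95% intervals use the t distribution on the fit's total degrees of freedom. The median SE was 0.31 for the interaction and 0.22 for nicotine in WT or KO. CPM are TMM-scaled, and list scores are mean log2 CPM with a prior count of 2. The procedure was tested on simulated data.

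Named genes were, in each direction, the 12 with the smallest unadjusted p and at least 5 CPM in the highest group, without predicted or unnamed genes. Added were Has1, Errfi1, Rcan1 and the tested nicotinic subunits, up to 3 members per list and any other member at an unadjusted p under 0.05, and up to 10 genes whose libraries separated in opposite directions in the genotypes. Some of these are not reported here. The comparison, members and 41 lists were chosen with earlier results of these data known. Lists are described by counts and medians, with no set test.

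Alternatives were DESeq2 1.42.0, limma 3.58.1 voom, other scalings and filters, no robust fit, adipocyte, skeletal muscle and surrogate variable (sva 3.50.0) covariates, thinned counts, leaving out libraries, and the authors' deposited effects. Fits ran in R 4.3.3, and Python 3.11.15 with matplotlib 3.10.9, numpy 2.4.6 and pandas 2.3.3 made tables and figures.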

Additional observations from a re-analysis of the deposited data

How the results depend on the processing

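The count of genes called for the interaction was 0 except with DESeq2 (9), the authors' deposited effects (7), no filter on low counts (1) and WT nicotine 6 and KO nicotine 3 both left out (1), the last chosen after seeing the data, and it was 0 to 1 with each library left out in turn. Genes at an unadjusted p under 0.05 numbered 568 lower and 433 higher in KO with the adipocyte covariate, and 270 to 673 lower and 185 to 456 higher with each library left out. Genes called with nicotine in WT were 115 with DESeq2, 21 with no filter, 7 with DESeq2 size factors, 7 with thinned counts, 0 with the adipocyte and 0 with the skeletal muscle covariate, and 0 to 34 with each library left out. Genes called with nicotine in KO were 0 in each refit of the counts (669 at an unadjusted p under 0.05 in edgeR), whereas the authors' deposited tables list 7 genes in KO and 123 in WT at an adjusted p under 0.05. The r between the genotypes' effects was -0.000618 to 0.188 with each library left out. The causes were not tested. Of the single genes named, Chrna7 changed sign in 1 alternative, at -0.18 with WT nicotine 6 and KO nicotine 3 both left out. No paired analysis was possible because no library number occurs in more than 1 group. With 3 libraries a group, the median 95% interval of 0.67 to each side limits what could be detected. That interval is for a single gene, and the adjusted threshold leaves larger differences undetected.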
